A study of Mus musculus with 16 samples.

Results

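The genes described here carry pyruvate into the mitochondrion and run the tricarboxylic acid (TCA) cycle. The list holds 35 genes, chosen by gene name. Of these, 34 had a probe set that the array's annotation gives to that gene alone, against 18194 such genes on the whole array. Testing required a log2 signal of 4 or more on at least 3 arrays, which left 32 of the 35, out of 11116 genes in all. Pdk2 and Pdk4 did not reach that level, and Mpc2 was not analysed here. The phosphatase gene Pdp2 reached it through the E13.5 arrays alone.

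RNA from mouse embryonic palate was hybridised to 16 one-colour Affymetrix arrays, in a study of how loss of ERK signalling affects the metabolism of the palate. Mutants carried the alleles Erk2 fl/fl with Wnt1-Cre, a transgene that deletes floxed alleles in neural crest cells, which give rise to most of the palatal mesenchyme. Controls carried Erk2 fl/fl and no Cre by their genotype label, although their titles call them wild-type, so both genotypes shared the floxed alleles and the controls held no Cre. All embryos had the strain label C57BL/6J. At embryonic day (E) 13.5 there were 3 mutant and 3 control arrays, and at E14.5 there were 5 of each, in 2 labelled batches that held both genotypes (replicates 1 and 2 in batch 1, the others in batch 2). The labels do not state how many embryos made up an array or whether arrays came from separate litters, so the p-values cover only the spread between these arrays, which may be partly technical. The tissue label is palate mesenchyme, while the design text speaks of primary cells. Expression of the deleted gene was not analysed here, which leaves the genotype labels without a check from the arrays.

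Pyruvate made by glycolysis crosses the inner mitochondrial membrane through a carrier of Mpc1 and Mpc2 subunits. The pyruvate dehydrogenase complex turns it into acetyl-CoA. That complex is switched off by pyruvate dehydrogenase kinases (Pdk genes) and switched on again by phosphatases (Pdp genes), so the balance of both sets how much pyruvate is oxidised. Citrate synthase joins acetyl-CoA to oxaloacetate, and the enzymes of the cycle then regenerate oxaloacetate while passing electrons to NADH and to the respiratory chain. The transaminases and glutamate dehydrogenase link the cycle to aspartate and glutamate. In growing embryonic tissue the cycle is known both for energy and for supplying citrate and aspartate to synthesis.

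The upstream sequences of 3 of these genes are printed because they belong to the pyruvate dehydrogenase machinery described further on and have a single listed window, where Pdk1 has several. Each run is the 250 bases before the annotated start, from RefSeq on build GRCm38.p6, written 5′ to 3′ on the gene's strand. Capitals mark every match, on either strand, to 5 motifs: the GC box GGGCGG, the CCAAT box CCAAT, the core ACGTG of the hypoxia response element, the ETS site CCGGAAGT and the estrogen-related receptor site TCAAGGTCA. ETS factors are known targets of ERK, and estrogen-related receptors are known regulators of TCA cycle genes.
Pdhb, chr14:8172993-8173242, strand -: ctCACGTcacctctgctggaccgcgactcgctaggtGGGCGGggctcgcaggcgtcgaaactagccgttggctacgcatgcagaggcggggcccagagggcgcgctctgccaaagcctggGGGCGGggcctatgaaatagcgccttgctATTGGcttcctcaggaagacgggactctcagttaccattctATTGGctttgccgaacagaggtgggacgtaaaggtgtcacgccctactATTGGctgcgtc
Pdhx, chr2:103073514-103073763, strand -: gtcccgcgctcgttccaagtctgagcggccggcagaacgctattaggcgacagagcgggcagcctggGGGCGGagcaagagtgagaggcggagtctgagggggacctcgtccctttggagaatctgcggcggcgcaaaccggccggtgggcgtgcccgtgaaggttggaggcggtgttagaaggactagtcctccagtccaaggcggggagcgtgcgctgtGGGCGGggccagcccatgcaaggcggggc
Pdp2, chr8:104591222-104591471, strand +: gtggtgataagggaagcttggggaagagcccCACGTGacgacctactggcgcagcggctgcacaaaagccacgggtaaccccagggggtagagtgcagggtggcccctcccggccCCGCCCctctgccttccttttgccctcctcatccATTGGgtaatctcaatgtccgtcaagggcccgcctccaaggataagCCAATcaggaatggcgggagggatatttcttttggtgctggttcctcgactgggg
The Pdhb run held 3 CCAAT boxes, 2 GC boxes and 1 hypoxia core. The Pdhx run held 2 GC boxes and none of the other motifs. The Pdp2 run held 2 CCAAT boxes, 1 GC box and the core ACGTG on both strands at 1 palindrome, which counts as 2 overlapping matches. Windows were found for 32 of the 35 members, 41 windows in all because some genes have several starts, and none was listed for Idh3a, Pdp1 and Sdhc. A GC box lay in 58.5% of the 41 member windows, against 32.7% of the 32851 windows of all genes and 42.6% of those of protein-coding genes. A CCAAT box lay in 53.7% of member windows, against 33.8% of all windows and 35.4% of protein-coding ones. The hypoxia core lay in 31.7%, against 16.6% and 17.8%. Neither the ETS letters, found in 2.88% of all windows, nor the receptor letters, found in 0.387%, occurred in a member window. A match is only a run of letters and not a measured site, and several windows of 1 gene overlap.

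Levels are given as log2 signal, on which a difference of 1 is a doubling. The enzymes of the cycle were among the more strongly detected genes of the palate. By rank within an array, 25 of the 32 tested members lay above the 75th percentile of the genes tested in all 4 groups. Highest were the malate dehydrogenases, with Mdh2 at 11.03 to 11.26 and Mdh1 at 10.21 to 11.23 over the 16 arrays. These enzymes oxidise malate to oxaloacetate in the mitochondrion and in the cytosol. The members below the 50th percentile in every group were Pdhx, Pdk3, Pdp1, Pdp2, Ogdh and Got1, so 4 of the 6 act on or within the pyruvate dehydrogenase complex. Replicate arrays differed little: the SD within a group had a median of 0.06 and a highest value of 0.28 over the 128 member-by-group sets.

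Loss of Erk2 in the neural crest went with no member passing the test at either stage. The test was limma's moderated comparison of mutants and controls in 1 fit of all 16 arrays with the labelled batch, with p adjusted after Benjamini and Hochberg over all 11116 genes and calls made under an adjusted p of 0.05. At E13.5, 0 of 32 members were called against 0.099% of all genes, and at E14.5 0 of 32 against 2.63%. The difference of the genotype effects between the stages was called for 0 of 32 members, against 0.117% of genes. Without adjustment, 2 of 32 members (6.25%) had a p under 0.05 at E13.5, where 9.54% of all genes did. At E14.5 the share was 3 of 32 (9.38%) against 17.3%, and for the difference between stages 3 of 32 (9.38%) against 10.4%. The smallest adjusted p of a member by limma was 0.23 at E13.5, 0.15 at E14.5 and 0.37 for the difference.

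The differences between mutants and controls were small, and the arrays bounded most of them. The median difference, mutant minus control, was -0.01 over the members and -0.04 over all genes at E13.5. There 15 members were higher and 17 lower, and 31.5% of all genes were higher. At E14.5 the median was 0.02 over the members and 0.01 over all genes. There 20 members were higher and 12 lower, and 56% of all genes were higher. Differences of at most 0.1 in size made up 25 of 32 members at E13.5 (62.8% of all genes) and 27 of 32 at E14.5 (66.2% of all genes). The 95% interval of the difference lay wholly between 20% lower and 25% higher for 26 of 32 members at E13.5, where 65% of all genes met that bound, and for 31 of 32 at E14.5, where 78.8% did. The exceptions at E13.5 were Pdhx, Pdk1, Pdk3, Pdp2, Ogdh and Mdh1, and at E14.5 Pdhx. The number of arrays limits the precision to these intervals.

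**Figure D1:**
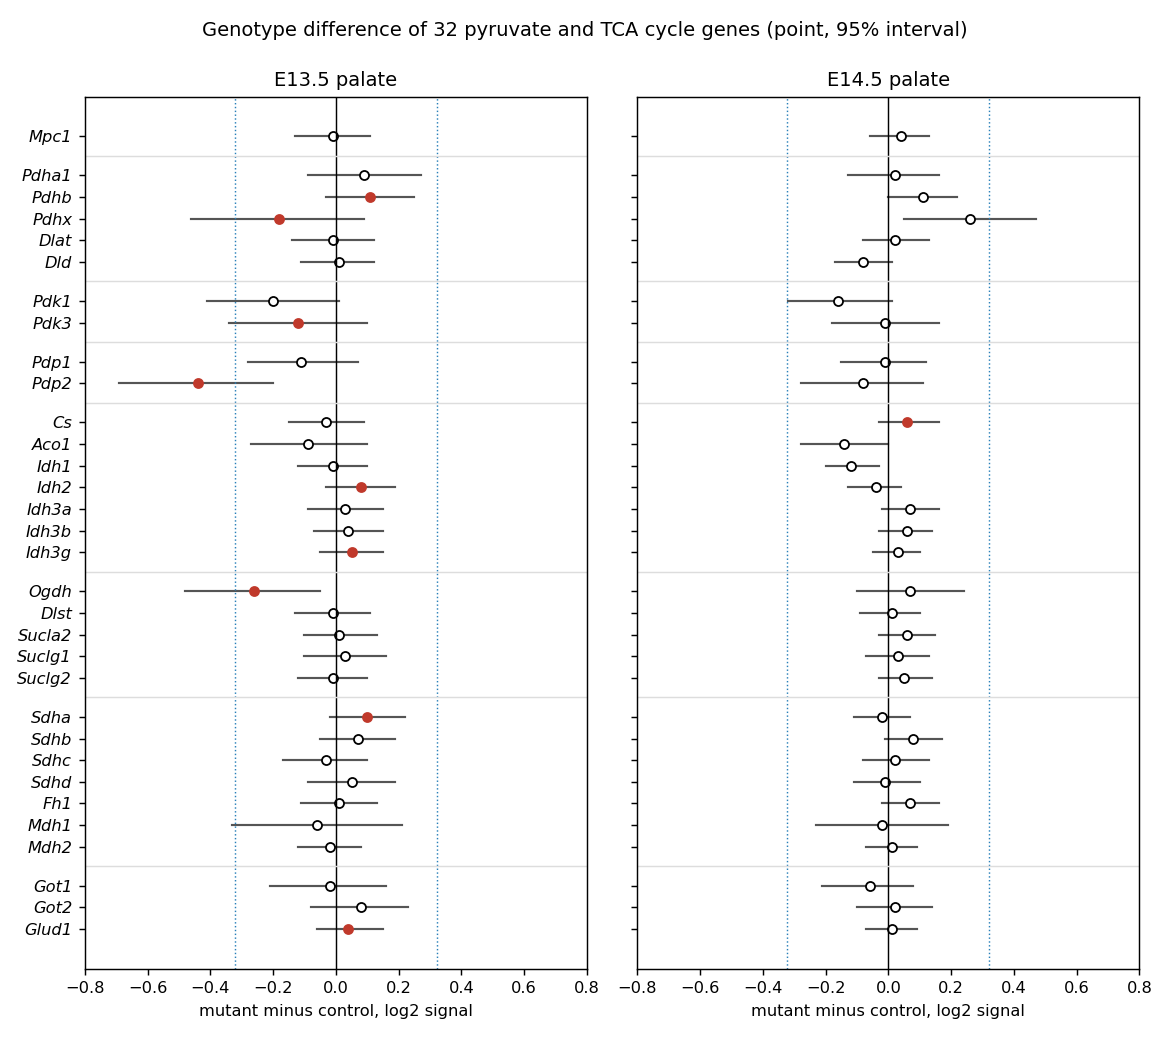
Difference between mutants and controls in log2 signal (x axis) for the 32 tested genes (rows, grouped by step of the pathway) at E13.5 and E14.5, with the 95% interval from limma. Filled points are genes whose mutant and control arrays did not overlap, 9 at E13.5 and 1 at E14.5 after removal of the batch effect, and dotted lines mark 20% lower and 25% higher, a bound that Pdp2 at E13.5 passes with its point (-0.44).

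The direction at E13.5 depended on how the arrays were scaled. The median of the genes tested was 6.57 to 6.65 on the mutant arrays and 6.66 to 6.70 on the control arrays. After each array was centred on that median, 25 members were higher and 7 lower at E13.5, and 59.2% of all genes were higher. The median difference was 0.06 against 0.02 over all genes. Centred on the median of all probe sets, 10 were higher and 22 lower, with 19.2% of all genes higher. The medians were -0.04 and -0.08. After quantile normalization within each stage 21 were higher and 11 lower, with 48.7% of all genes higher and medians of 0.03 and -0.00. The members' median thus lay above that of all genes under each scaling, an offset that was not tested. At E14.5 the same scalings gave 16, 20 and 20 members higher of 32, against 49.5%, 57.4% and 52.6% of all genes. No member was called under any of them, so no direction is given for the list as a whole.

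At the entry step, the carrier subunit Mpc1 hardly differed between genotypes. Its difference was -0.01 ± 0.06 (SE) at E13.5, with a 95% interval from -0.13 to 0.11, and 0.04 ± 0.04 at E14.5, with an interval from -0.06 to 0.13.

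Within the pyruvate dehydrogenase complex, Pdhb was a little higher in mutants at both stages and Pdhx had opposite signs at the 2 stages, with neither called. Pdhb encodes the beta subunit of the decarboxylating enzyme (E1). At E13.5 its signal was 9.40, 9.29 and 9.26 on the mutant arrays and 9.22, 9.15 and 9.25 on the control arrays. The mutant arrays all lay above the controls, the closest pair 9.26 and 9.25, and the difference was 0.11 ± 0.06 (adjusted p = 0.61, limma). At E14.5 it was 8.84, 8.83, 8.76, 8.66 and 8.83 in mutants and 8.65, 8.63, 8.76, 8.74 and 8.59 in controls. Here the groups overlapped, and the difference was again 0.11 ± 0.05 (adjusted p = 0.28). It was 0.19 in batch 1 and 0.05 in batch 2. A second, dimmer probe set of Pdhb gave 0.29 at E13.5 and 0.09 at E14.5.

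Pdhx encodes the component that tethers the E3 enzyme to the core of the complex. On the E13.5 arrays it read 5.89, 5.87 and 5.88 in mutants and 6.09, 6.12 and 5.98 in controls. Every mutant array was below every control array, yet the fitted difference of -0.18 ± 0.13 had an adjusted p of 0.69 in the fit, which takes 1 spread per gene from all 16 arrays. On the E14.5 arrays it read 4.79, 4.64, 4.79, 4.28 and 4.80 in mutants and 4.46, 4.48, 4.30, 4.63 and 4.14 in controls. Mutants were higher except for replicate 4, the groups overlapped, and the difference was 0.26 ± 0.10 (adjusted p = 0.19). It was 0.25 in batch 1 and 0.26 in batch 2. The change of the genotype difference between stages was 0.44 ± 0.16 for Pdhx, with a 95% interval from 0.09 to 0.79 and an adjusted p of 0.37. Pdhx has 1 probe set above the signal limit, so no second one could be set beside it.

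The other subunits differed by less. For Dld, the E3 enzyme that this complex shares with the 2-oxoglutarate dehydrogenase complex, the E14.5 arrays read 8.47, 8.45, 8.49, 8.47 and 8.44 in mutants and 8.61, 8.65, 8.42, 8.50 and 8.52 in controls. All mutant arrays were below 4 of the 5 controls, and the difference was -0.08 ± 0.04 (adjusted p = 0.38). Pdha1, the catalytic alpha subunit, and Dlat, the acetyltransferase core, differed by 0.09 and -0.01 at E13.5 and by 0.02 and 0.02 at E14.5.

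Of the kinases and phosphatases that regulate the complex, the 4 that could be tested read lower in mutants at E13.5, by -0.11 to -0.44. None was called, and of all genes tested 31.5% were higher in mutants at E13.5 as deposited. The difference of Pdp2 was the largest of any member at that stage. Pdp2, a phosphatase that reactivates the complex, read 4.48, 4.58 and 4.34 in mutants and 4.87, 4.87 and 4.99 in controls. Mutants and controls did not overlap, and the difference was -0.44 ± 0.12, or -26.5%, with a 95% interval from -38.1% to -12.7% and an adjusted p of 0.23 by limma. With array weights in the fit, the difference was -0.45 at an adjusted p of 0.04, the only one of 29 alternative settings at E13.5 and 31 at E14.5 in which a member passed for genotype. Leaving out mutant replicate 3 gave -0.38 (adjusted p = 0.89). At E14.5, Pdp2 read 2.02 to 2.34 in mutants and 1.96 to 2.51 in controls, close to the array medians of 1.63 to 1.66, so a difference there could hardly be seen. The other phosphatase, Pdp1, read 5.86, 6.01 and 5.92 in mutants and 6.01, 6.17 and 5.94 in controls at E13.5. These groups overlapped, and the difference was -0.11 ± 0.08 (adjusted p = 0.71).

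Pdk1 inactivates the complex and is known as a target of hypoxia signalling. Its E13.5 arrays read 7.81, 8.21 and 8.06 in mutants and 8.33, 8.21 and 8.14 in controls. Its E14.5 arrays read 8.64, 8.75, 8.63, 8.77 and 8.69 in mutants and 8.80, 9.01, 8.75, 8.74 and 8.96 in controls. On average mutants were lower at both stages, by -0.20 ± 0.10 (adjusted p = 0.55) and -0.16 ± 0.08 (adjusted p = 0.31), with overlapping arrays each time. Its 2 dimmer probe sets differed by -0.06 and -0.09 at E13.5 and by at most -0.02 at E14.5. Pdk3 read 6.57, 6.56 and 6.55 in mutants and 6.68, 6.69 and 6.69 in controls at E13.5, which did not overlap, for a difference of -0.12 ± 0.10 (adjusted p = 0.75). At E14.5 its difference was -0.01, made of 0.18 in batch 1 and -0.14 in batch 2. All 4 of these genes kept the lower direction at E13.5 in each alternative setting that was run. Values were -0.50 to -0.38 for Pdp2, -0.29 to -0.09 for Pdk1, -0.16 to -0.06 for Pdk3 and -0.16 to -0.04 for Pdp1. Many of these settings, such as leaving out an E14.5 array, leave the E13.5 difference unchanged and could not turn its sign. Pdk4 and Pdk2 had too little signal to be tested. Pdk4 read 2.45, 2.95 and 2.80 in mutants and 2.76, 3.11 and 2.81 in controls at E13.5. At E14.5 it read 3.02, 3.51, 3.11, 3.19 and 3.01 in mutants and 3.30, 4.01, 3.14, 3.53 and 4.20 in controls, where the arrays overlapped. Pdk2 stayed between 3.33 and 3.44 at E13.5 and between 1.00 and 1.33 at E14.5.

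**Figure D2:**
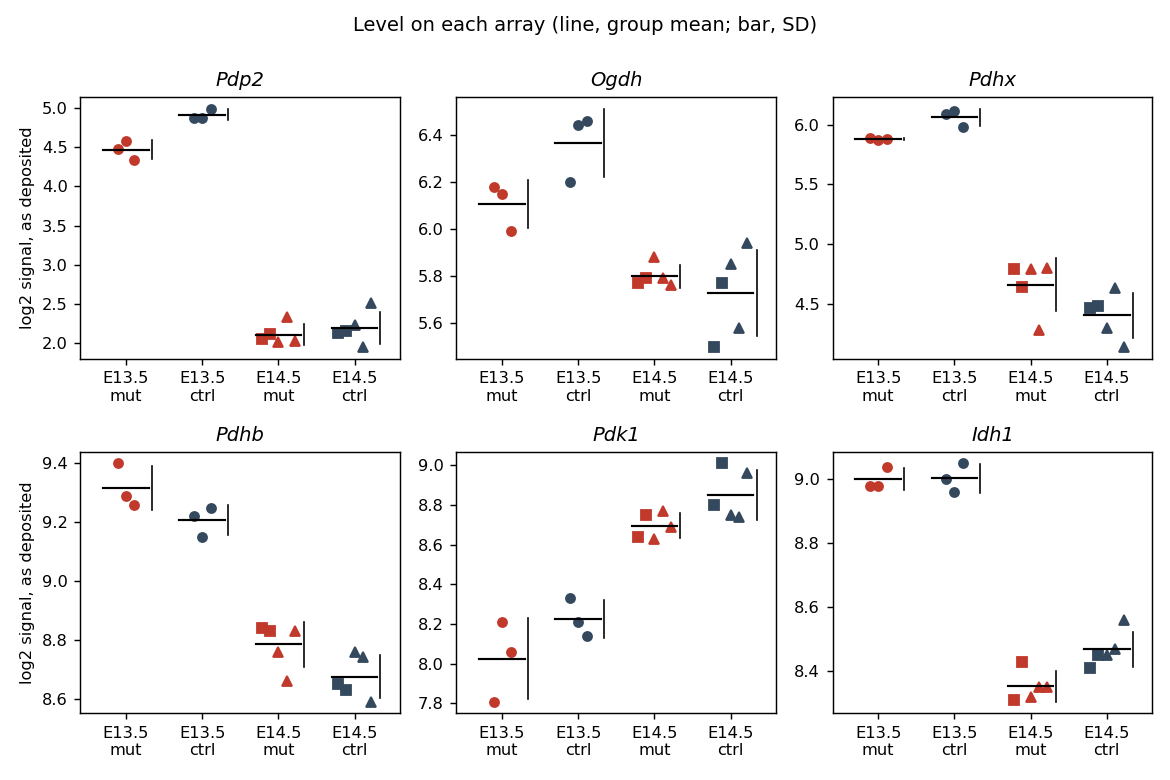
Log2 signal as deposited (y axis) on each of the 16 arrays for 6 genes, by stage and genotype (mut, mutant; ctrl, control). Squares are E14.5 batch 1, triangles E14.5 batch 2 and circles E13.5; lines are group means and bars 1 SD. Pdp2, Ogdh and Pdhx are lower in every E13.5 mutant than in any E13.5 control, and all 3 overlap at E14.5.

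In the first span of the cycle, from citrate to 2-oxoglutarate, 4 of 7 members were higher and 3 lower in mutants at each stage, within -0.14 to 0.08. Idh1, the cytosolic NADP-dependent isocitrate dehydrogenase, had the smallest p at E14.5. It read 8.31, 8.43, 8.32, 8.35 and 8.35 in mutants and 8.41, 8.45, 8.45, 8.47 and 8.56 in controls. All mutant arrays but replicate 2 were below every control, and the difference was -0.12 ± 0.04, or -7.66% (adjusted p = 0.15, limma). It was -0.06 in batch 1 and -0.15 in batch 2, and a second probe set gave -0.16 at E14.5. At E13.5 Idh1 differed by -0.01 ± 0.05.

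Aco1, the cytosolic aconitase that also acts as iron regulatory protein, read 9.18, 9.38, 9.44, 9.51 and 9.39 in mutants and 9.53, 9.70, 9.44, 9.47 and 9.45 in controls at E14.5. The difference of -0.14 ± 0.07 (adjusted p = 0.30) came from 1 batch, with -0.34 in batch 1 and -0.01 in batch 2. Citrate synthase (Cs) read 9.88, 9.86, 9.95, 9.98 and 9.96 in mutants and 9.85, 9.85, 9.88, 9.91 and 9.82 in controls. These overlapped as deposited and separated after the batch effect was removed, for a difference of 0.06 ± 0.04 (adjusted p = 0.50). Idh3a, the catalytic subunit of the NAD-dependent isocitrate dehydrogenase, read 8.50, 8.39, 8.36, 8.40 and 8.50 in mutants and 8.33, 8.38, 8.39, 8.39 and 8.31 in controls. Both groups overlapped, and the difference was 0.07 ± 0.04 (adjusted p = 0.43).

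At E13.5, Idh2 and Idh3g were the members of this span whose arrays separated. Idh2, the mitochondrial NADP-dependent enzyme, read 8.71, 8.67 and 8.64 in mutants and 8.63, 8.58 and 8.55 in controls, a difference of 0.08 ± 0.05 (adjusted p = 0.62). Idh3g, a regulatory subunit of the NAD-dependent enzyme, read 8.98, 8.91 and 8.96 in mutants and 8.89, 8.91 and 8.90 in controls, a difference of 0.05 ± 0.05 (adjusted p = 0.79). In both, the lowest mutant and the highest control array nearly touched.

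From 2-oxoglutarate to succinate, Ogdh stood apart from its neighbours at E13.5. Ogdh encodes the decarboxylase of the 2-oxoglutarate dehydrogenase complex. It read 6.18, 6.15 and 5.99 in mutants and 6.20, 6.44 and 6.46 in controls, so that mutants lay below controls with little room between the closest arrays. The difference was -0.26 ± 0.10, or -16.7% (adjusted p = 0.44, limma). A second probe set of Ogdh, not used in the count, read 4.75, 4.74 and 4.62 in mutants and 4.87, 5.05 and 5.18 in controls and gave -0.34 (adjusted p = 0.34 over the 18136 probe sets tested). At E14.5 Ogdh differed by 0.07 ± 0.08, and the change between stages was 0.33 ± 0.13 (adjusted p = 0.40). The succinyltransferase Dlst and the succinyl-CoA ligase subunits Sucla2, Suclg1 and Suclg2 differed by -0.01 to 0.03 at E13.5 and by 0.01 to 0.06 at E14.5.

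From succinate to oxaloacetate, 4 of 7 members were higher and 3 lower at each stage, within -0.06 to 0.10. Sdha, the flavoprotein of succinate dehydrogenase, read 9.19, 9.09 and 9.08 in mutants and 9.03, 9.03 and 9.01 in controls at E13.5. The mutant arrays lay above the controls, and the difference was 0.10 ± 0.05 (adjusted p = 0.59), but its second probe set gave -0.03. Sdhb, the iron-sulphur subunit, read 9.61, 9.61, 9.52, 9.53 and 9.57 in mutants and 9.48, 9.41, 9.56, 9.55 and 9.44 in controls at E14.5. These overlapped, with a difference of 0.08 ± 0.04 (adjusted p = 0.37). Sdhc and Sdhd, the membrane anchors, and the enzymes Fh1 (fumarase), Mdh1 and Mdh2 differed by -0.06 to 0.05 at E13.5 and by -0.02 to 0.07 at E14.5.

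Among the enzymes that tie the cycle to amino acids, Glud1 (glutamate dehydrogenase) read 8.91, 8.81 and 8.81 in mutants and 8.80, 8.80 and 8.81 in controls at E13.5. The lowest mutant array and the highest control array both round to 8.81, and the difference was 0.04 ± 0.05 (adjusted p = 0.83). The aspartate transaminases Got1 (cytosolic) and Got2 (mitochondrial) differed by -0.02 and 0.08 at E13.5 and by -0.06 and 0.02 at E14.5.

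In all, 9 of 32 members had mutant and control arrays that did not overlap at E13.5, which is 28.1% against 17.9% of all genes. Of these, Pdhb, Idh2, Idh3g, Sdha and Glud1 were higher and Pdhx, Pdk3, Pdp2 and Ogdh lower. At E14.5, with the batch effect removed, it was 1 of 32 (Cs), or 3.12% against 4.9%. As deposited, 19 of 32 members had the same sign of the genotype difference at both stages (59.4% against 53.4% of all genes), 11 higher and 8 lower. Within E14.5, 21 of 32 had the same sign in both batches, 65.6% against 56.5% of all genes.

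**Figure D3:**
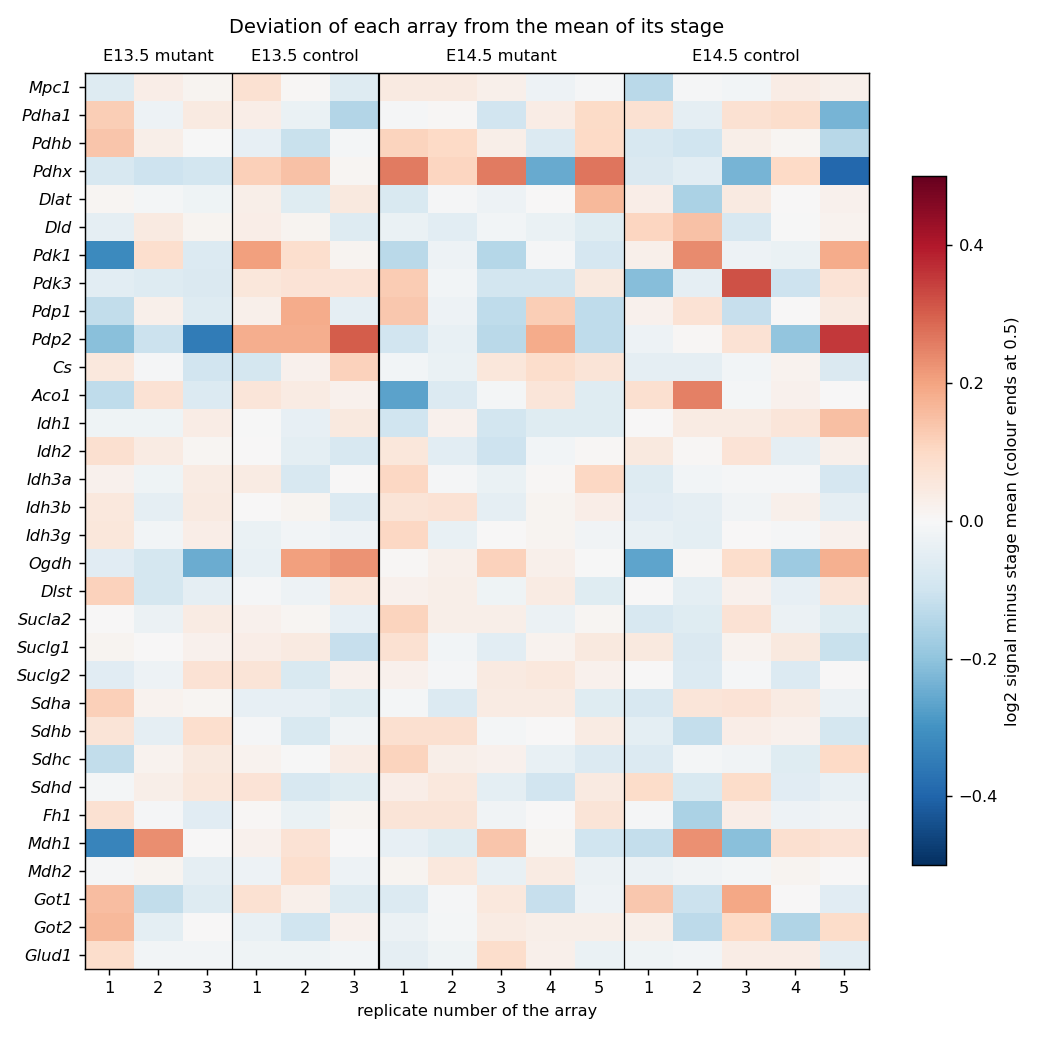
Log2 signal of the 32 tested genes (rows) on each array (columns), as the deviation from the mean of all arrays of the same stage, with red above and blue below it. Of the 512 cells, 81.8% lie within 0.1 of 0, and the stronger colours lie mainly in the rows of Pdhx, Pdk1, Pdk3, Pdp2, Ogdh and Mdh1. Pdp2 at E13.5 is blue in all 3 mutants and red in all 3 controls.

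The probe sets of 1 gene were also set beside each other. For 21 tested members at least 2 probe sets passed the signal limit. In 14 of the 21 all had the same sign of the genotype difference at E13.5, and likewise in 14 at E14.5. The share over all genes with several probe sets was not counted, so these counts have no background and are not a check. Over all 58 member probe sets, 0 were called at either stage, against 0.0551% and 1.29% of the 18136 probe sets tested.

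Other genes of the pathway were counted from a list of 46 names, of which 36 could be tested. At E13.5, 7 were higher and 29 lower in mutants as deposited, with a median of -0.03, and 0 were called. Over all genes tested the median was -0.04 and 31.5% were higher. Centred on the genes tested, 23 of the 36 were higher and 13 lower, centred on all probe sets 2 and 34, and after quantile normalization within the stage 21 and 15, so this direction too turned with the scaling. The 3 smallest p there belonged to Ppargc1a, a coactivator of mitochondrial genes, at -0.28 ± 0.12 (adjusted p = 0.47), Glul, glutamine synthetase, at -0.10 ± 0.05 (adjusted p = 0.56), and Gpt, alanine transaminase, at 0.12 ± 0.07 (adjusted p = 0.59). Ppargc1a read 4.59, 4.69 and 4.55 in mutants and 4.82, 4.93 and 4.93 in controls, without overlap. At E14.5, 20 were higher and 16 lower, and 1 of 36 was called (2.78%), a share near the 2.63% of all genes. That was Slc25a10, the mitochondrial dicarboxylate carrier, which rose by 0.23 ± 0.06 (adjusted p = 0.048, limma). It read 3.53, 3.47, 3.75, 3.48 and 3.59 in mutants and 3.37, 3.27, 3.20, 3.40 and 3.43 in controls, so every mutant was above every control, at a signal below the limit of 4. Under the other 3 scalings its adjusted p was 0.0503 to 0.0829 and it was not called. Sdhaf4, an assembly factor of succinate dehydrogenase, differed by 0.14 ± 0.04 (adjusted p = 0.10), with 8.06 to 8.21 in mutants and 7.93 to 8.04 in controls. Nnt, the transhydrogenase that makes mitochondrial NADPH, differed by -0.37 ± 0.11 (adjusted p = 0.11), with 8.30 to 8.61 in mutants and 8.53 to 9.10 in controls.

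Tissue markers showed what else differed between the arrays. The 10 listed palate mesenchyme markers were all measured, at a mean of 8.14 to 8.88 over the arrays. In E13.5 mutants 10 of 10 were lower, at a median of -0.18, with a mean of 8.57 to 8.67 against 8.76 to 8.88 in controls, and none was called. At E14.5, 3 were higher and 7 lower, at a median of -0.06. With arrays centred on the genes tested, 1 was higher and 9 lower at E13.5. The 9 mitochondrial housekeeping genes, such as Vdac1, Hspd1 and Cycs, had a mean of 9.59 to 9.72 on every array as deposited. On that scale 5 were higher and 4 lower in mutants at each stage, and none was called. At E13.5, 9 were higher and 0 lower when centred on the genes tested, and 1 and 8 when centred on all probe sets. After quantile normalization within the stage it was 8 and 1. Between stages, 9 were higher and 0 lower at E14.5 in controls after centring on the genes tested. Skeletal muscle genes, of which 14 of 16 were tested, were higher in mutants in 14 of 14 cases at both stages, by a median of 0.65 and 0.46, and none was called. Their mean was 6.98 to 7.33 in mutants and 6.38 to 6.64 in controls at E13.5, and 5.85 to 7.21 and 5.12 to 6.48 at E14.5. All 11 oral epithelium genes tested were higher in mutants at E14.5, with a mean of 7.88 to 8.24 against 7.43 to 7.66. Of these, 5 were called (45.5%), against 2.63% of all genes. At E13.5, 3 were higher and 8 lower as deposited, at a median of -0.06, and none was called. The 5 cartilage genes tested were all higher in mutants at E13.5, at a median of 0.76 and a mean of 6.17 to 6.60 against 5.34 to 6.29, and none was called. At E14.5, 2 of them were higher and 3 lower, at a median of -0.14, and 1 (20%) was called lower. Of 8 bone genes listed, 5 had a probe set of their own and were tested. These were all lower in mutants at both stages, except that 1 was higher at E13.5 with arrays centred on the genes tested. At E13.5 their median difference was -0.44, with a mean of 4.47 to 4.95 against 5.24 to 5.42 and none called. At E14.5 their median difference was -0.70, with 4 called (80%, against 2.63% of all genes), or 3 (60%) when centred on all probe sets. Lists for neuron, endothelium, erythroid, macrophage and fat had 0 genes called for genotype at either stage. At E13.5, 5 of 6 neuron, 2 of 7 endothelium, 1 of 4 erythroid, 3 of 5 macrophage and 0 of 1 fat genes were higher in mutants. At E14.5 the same lists gave 4, 1, 1, 3 and 0 higher. In bulk RNA, fewer cells of a type and less RNA per cell cannot be told apart. What part these mixtures have in the members' values was not tested. Without E14.5 controls 1 and 3, which had the lowest muscle means (5.14 and 5.12), 0 members were called at either stage, as with all arrays. Those arrays do not enter the E13.5 difference. At E14.5, 201 of all genes were called without them, against 292 with them, so a lack of calls there says little about the mixtures. By Xist level, 3 of 5 mutant and 1 of 5 control arrays at E14.5 read as female, and so did all 6 arrays at E13.5, where an array may hold RNA of several embryos. With this reading as a term within E14.5, 0 members were called at either stage, as without it, the X-linked Pdha1, Pdk3 and Idh3g included. At E13.5, where all arrays read alike, the term adjusts nothing. What part sex has in the values was thus not settled.

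Between E13.5 and E14.5 the members differed about as often as other genes did. Each array was first centred on the median of the genes tested, because the median over all probe sets lay between 3.39 and 3.44 on the E13.5 arrays but between 1.63 and 1.66 on those of E14.5. On that scale 27 of 32 members (84.4%) were called by limma in controls, 21 higher and 6 lower at E14.5, against 82.3% of all genes. In mutants it was 27 as well, 20 higher and 7 lower, against 82% of all genes. The stages carry no shared batch label, so stage and processing run cannot be told apart, and these are comparisons of the 2 sets of arrays.

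How strong a gene's signal was went with its stage difference. When all genes tested were split into 5 equal parts by mean level over the 16 arrays, which include the arrays compared, so that a gene's own stage difference helps to place it, the median centred difference in controls rose from -1.49 in the lowest part through -0.52, -0.02 and 0.23 to 0.42 in the highest. The members lay mostly at the top: 24 of 32 (75%) were in the highest part, and their median there was 0.45, beside 0.42 for all genes of that part. The members in the lower parts (1, 2, 4 and 1 genes) had medians of -2.14, -0.67, 0.07 and 0.31.

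**Figure D4:**
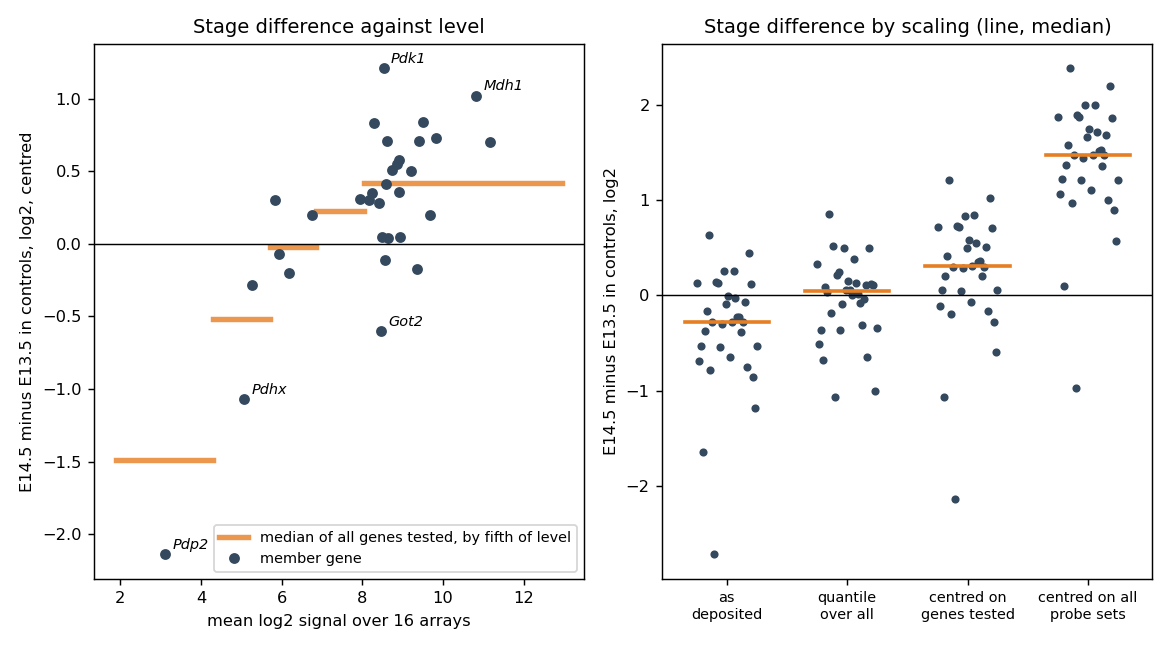
Left, difference between E14.5 and E13.5 controls in log2 signal after centring (y axis) against the mean level of the gene (x axis); points are the 32 members, and bars are the medians of all genes tested in 5 parts by level, from -1.49 to 0.42. Right, the same difference for each member under 4 scalings of the arrays, with the median as a line, from -0.28 as deposited to 1.47 when centred on all probe sets.

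The direction between stages turned with the scaling for most members. As deposited, 8 members were higher and 24 lower at E14.5 in controls, at a median of -0.28 (-0.63 over all genes). Of all genes, 17.4% were higher on that scale. With centring on the genes tested 24 members were higher and 8 lower, with 47.5% of all genes higher. With centring on all probe sets it was 31 and 1, with 82.2% of all genes higher. With quantile normalization of all 16 arrays it was 18 and 14, with 44.7% of all genes higher. Under all 4 scalings, 8 members were higher at E14.5 (Mpc1, Pdk1, Cs, Aco1, Idh3a, Sucla2, Mdh1 and Mdh2), Pdp2 was lower, and the other 23 changed sign. The share of all genes with 1 sign under all 4 scalings was not counted.

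Among members higher at E14.5 under each scaling, Pdk1 had the largest centred difference. As deposited, controls read 8.33, 8.21 and 8.14 at E13.5 and 8.80, 9.01, 8.75, 8.74 and 8.96 at E14.5, without overlap. The difference was 0.63 as deposited and 1.21 centred, but its other probe sets gave 0.30 and -0.59 centred. Mdh1 read 10.56, 10.61 and 10.54 at E13.5 and 10.88, 11.23, 10.79, 11.08 and 11.07 at E14.5, a centred difference of 1.02, and 0.62 and 0.21 by its other probe sets. Sucla2, the ATP-forming subunit of succinyl-CoA ligase, read 9.34, 9.33 and 9.28 and then 9.52, 9.54, 9.67, 9.57 and 9.54, a centred difference of 0.84 from a single probe set. All 3 genes separated the stages in the deposited values, where 17.4% of all genes were higher at E14.5 in controls. The share of all genes that separated was not counted.

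Idh3a read 8.17, 8.05 and 8.13 at E13.5 and 8.33, 8.38, 8.39, 8.39 and 8.31 at E14.5 in controls, a centred difference of 0.83, while its dimmer probe sets gave -1.09 and -0.51. Cs read 9.61, 9.72 and 9.81 and then 9.85, 9.85, 9.88, 9.91 and 9.82, a centred difference of 0.73, against 0.02 and 0.18 by its other probe sets. Aco1 read 9.41, 9.39 and 9.37 and then 9.53, 9.70, 9.44, 9.47 and 9.45, a centred difference of 0.71, against -0.35 by its other probe set. The size of the difference, and in Pdk1, Aco1 and Idh3a its sign, thus depended on the probe set. The same was seen for Dlst and Sdhc, so that 16 of 21 members with several probe sets had 1 sign in controls. The share over all genes was not counted. Sdhd kept its sign but gave 0.51 by its brighter and 2.50 by its dimmer probe set.

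Lower at E14.5 in controls were Pdp2, Pdhx, Got2, Got1, Pdk3 and Fh1. Pdp2 read 4.87, 4.87 and 4.99 at E13.5 and 2.13, 2.16, 2.23, 1.96 and 2.51 at E14.5 as deposited, a centred difference of -2.14 ± 0.10. It passed the signal limit only through the stage in which it is high, and its E14.5 values lie near the array medians of 1.63 to 1.66, so the size of this difference is not well measured. Pdhx read 6.09, 6.12 and 5.98 at E13.5 and 4.46, 4.48, 4.30, 4.63 and 4.14 at E14.5 (centred -1.07), with 0.10 when centred on all probe sets. Got2 read 9.18, 9.12 and 9.24 and then 8.05, 7.89, 8.12, 7.87 and 8.11 (centred -0.60). It is a strongly detected gene that, on the centred scale, was lower in a part of the range where most genes were higher. As deposited, the median of that part was -0.17, beside -1.18 for Got2.

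Got1 read 5.89, 5.84 and 5.75 at E13.5 and 5.07, 4.83, 5.13, 4.94 and 4.88 at E14.5 (centred -0.28). Fh1 read 9.81, 9.77 and 9.82 and then 9.08, 8.93, 9.12, 9.06 and 9.07 (centred -0.17). Pdk3 read 6.68, 6.69 and 6.69 and then 5.69, 5.86, 6.22, 5.80 and 5.97 (centred -0.20, adjusted p = 0.049, limma). All 3 separated the stages as deposited. On that scale 86.5% of all genes were called in controls, 1294 higher and 8324 lower. How many of all genes separated was not counted. When centred on all probe sets, Got1, Got2, Pdk3 and Fh1 were higher at E14.5, and Got1 also after quantile normalization. The call on Pdk3 as lower was kept in 8 of its 27 alternative settings. It was lost in 16, for example at an adjusted p of 0.15 without E14.5 control 1, and in 3 the sign reversed.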

How the data were processed

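The authors deposited log2 expression values for 45101 probe sets on 16 arrays, made with GCRMA per the submitters' processing notes, with version and settings not given in the sources used here. Per the protocols in the labels, the authors used column-based extraction of total RNA and standard biotin labelling. No source used here says if E13.5 and E14.5 arrays were normalized together. Arrays give no count depth, and their number limits the precision. Arrays of a group correlated at 0.993 to 0.997.

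Genes were named from the platform annotation, which gives 1 gene for 34958 probe sets. Each gene took its probe set with the highest mean, and genes with fewer than 3 arrays at log2 4 were left out. Signals of different genes come from different probes, so levels across genes only rank signal. Differences were fitted with limma 3.58.1 in R 4.3.3 (lmFit and eBayes, 4 groups, the labelled batch within E14.5), adjusted by Benjamini-Hochberg over 11116 genes. Genotype contrasts used the deposited values, and stage contrasts used values centred on each array's median of genes tested. Errors are moderated standard errors unless SD is named. The fit was tested on simulated data. Members named with values in every array were the 8 with the smallest p at each stage, those whose arrays did not overlap between genotypes, and the 6 with the largest stage change in each direction. The members and lists were chosen with earlier results of these data known. Arrays were read as female above a mean log2 of 5 for Xist. Figures used Python 3.11.15 with matplotlib 3.10.9.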

Additional observations from a re-analysis of the deposited data

Results flagged for a closer look

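An array was set against the other arrays of its group in the groups of 5 (E14.5), and it was listed where its gap to the nearest one, divided by the range of the group, passed Dixon's critical value of 0.71. Of 68 such groups 5 passed, and chance alone gives about 3.4. Mpc1 read 8.54 on E14.5 control 1, below the other controls at 8.66 to 8.71. Dlat read 6.46 on E14.5 control 2, below 6.62 to 6.66. Idh1 read 8.43 on E14.5 mutant 2, above 8.31 to 8.35. Ogdh read 5.88 on E14.5 mutant 3, above 5.76 to 5.79. Pdk2, which was below the signal limit, read 1.00 on E14.5 mutant 5, below 1.22 to 1.29.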

How the results depend on the processing

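Over 29 alternatives at E13.5, 31 at E14.5 and 28 for the difference between stages, the smallest adjusted p of any member by limma was 0.04, 0.052 and 0.17. The settings were other filters, probe set rules, scalings, variance models and batch terms, each array left out, sex as a term, and single stages or batches. Array weights called 1 member at E13.5, Pdp2, with 85 genes called in all; no other setting called a member for genotype or for the difference. Of 595 alternative values for the named genotype differences, 593 kept their sign and their side of the threshold. Many of these settings change only arrays of the other stage or the estimate of spread, so the sign could not turn in them. Sdha at E13.5 turned to -0.04 as the mean over its probe sets. Centring on the genes tested gave 25 members higher at E13.5 at a median of 0.06, where 59.2% of all genes were higher. For the difference between stages it gave 6 higher at a median of -0.06, where 43% of all genes were higher. The number of arrays limits the precision to the intervals given.

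The replicate block gave 0 members called for genotype at either stage and left 26 called between stages in each genotype. Same-numbered samples deviated together at correlations of -0.17, 0.17 and -0.08 at E13.5 and of -0.45 to 0.03 at E14.5, so the numbers were not taken to pair samples.

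The members' median stage difference moved most. In controls it was 1.19 without a filter, 0.13 with a limit of log2 6, 0.44 as the mean over probe sets, -0.28 as deposited, 1.47 centred on all probe sets and 0.04 after quantile normalization. In mutants the same settings gave 1.14, 0.08, 0.31, -0.26, 1.53 and 0.01. Without a filter, the centring median itself shifts, and Got2 (0.29), Got1 (0.60), Pdk3 (0.68) and Fh1 (0.72) turned positive. Centred on all probe sets, Pdhx (0.10), Got2 (0.57), Got1 (0.89), Pdk3 (0.97) and Fh1 (1.00) did. As the mean over probe sets, Got1 (0.12), Pdk3 (0.20), Fh1 (0.23) and Idh3a (-0.19) reversed, and Got1 did after quantile normalization (0.11). Got1, Pdk3 and Fh1 have 1 probe set each, so under probe set means their own values stayed the same and only the centring median changed. Idh3a has 4 probe sets, and those above the signal limit gave 0.83, -1.09 and -0.51. Leaving out 1 array kept 26 to 27 members called between stages in controls and 25 to 28 in mutants.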
